A study of Caenorhabditis elegans with 2 samples.

Results

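The snRNA genes of Caenorhabditis elegans, 99 of the 46890 annotated genes on its nuclear chromosomes, were examined for peaks of the D2030.7 protein. The members are all genes that Ensembl annotates with the biotype snRNA, other than the 30 spliced leader RNA genes whose names begin with sls-, whether or not a peak was called at them. Chromatin of strain RW12302 was precipitated with an antibody to GFP and the recovered DNA was sequenced (ChIP-seq). This strain carries D2030.7::TY1::EGFP::3xFLAG, a tag inserted by CRISPR into the D2030.7 gene itself. The worms were bleached, starved as L1 larvae and collected as young adults at 62.5 hours. The 2 samples are biological replicates of this 1 group, so there is no untagged, mutant or untreated group to set them against and no test was run. The chromatin came from whole worms, so binding in 1 tissue cannot be told apart from weaker binding in many. The deposited files are lists of peaks with no read counts, so the depth behind each peak is unknown.

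Small nuclear RNAs are the RNA cores of the spliceosome. U1 pairs with the 5′ splice site, U2 with the branch site, U6 (carried in with U4) takes over the 5′ splice site and forms the catalytic centre, and U5 holds the exon ends. In animals, RNA polymerase II makes U1, U2, U4 and U5, while RNA polymerase III makes U6 from a promoter that also has a TATA box, and both kinds of promoter carry a proximal sequence element read by the SNAPc complex. SmY RNAs are short Sm-bound RNAs of nematodes linked to spliced leader trans-splicing.

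The annotation names no U class for these genes, so the classes rest on sequence. A gene joined a family when its RNA was at least 80% identical to at least 1 RNA there, so genes of a class can be less alike. The lowest identity of any pair was 68.5% in U6 and 78.5% in U1. Each family was named by a stretch known to do the work of its RNA. This gave 13 U1, 19 U2, 5 U4, 12 U5, 23 U6 and 10 SmY genes, with 17 genes in no class. The SmY genes were taken by their smy- names. The gene with the strongest peak in U1, U2, U4 and SmY is printed here to show the stretch that names its class. Capitals mark the bases that pair with the 5′ splice site in U1, those that pair with the branch site in U2, the 5′ stretch in U4 that pairs with U6, and the Sm site in SmY. U5 genes were named by the exon-binding loop and U6 genes by the stretch that faces the 5′ splice site. Sequences are DNA letters of the gene's own strand, read from the RefSeq genome of build WBcel235, which is the assembly also called ce11.
sup-6, U1, chrII:12944803-12944967, minus strand: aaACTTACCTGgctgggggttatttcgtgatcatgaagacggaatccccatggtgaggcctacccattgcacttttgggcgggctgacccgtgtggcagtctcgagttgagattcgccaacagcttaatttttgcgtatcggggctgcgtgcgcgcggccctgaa
Y57G11C.35, U2, chrIV:14764848-14765034, minus strand: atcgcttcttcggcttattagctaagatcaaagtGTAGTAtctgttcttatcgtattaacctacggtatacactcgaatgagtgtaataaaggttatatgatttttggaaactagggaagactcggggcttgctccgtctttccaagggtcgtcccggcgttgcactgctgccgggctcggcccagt
C52E4.8, U4, chrV:11980118-11980261, plus strand: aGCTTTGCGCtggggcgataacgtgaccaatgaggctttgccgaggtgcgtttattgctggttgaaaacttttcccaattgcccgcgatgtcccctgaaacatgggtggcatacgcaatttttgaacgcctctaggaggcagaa
smy-8, SmY, chrIV:13600847-13600925, plus strand: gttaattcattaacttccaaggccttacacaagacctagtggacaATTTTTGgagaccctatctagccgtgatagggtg

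The stretch was present in 12 of 13 U1, 18 of 19 U2, 5 of 5 U4, 11 of 12 U5 and 22 of 23 U6 genes. The Sm site, the letters ATTTTTG where Sm proteins assemble, was found in all 13 U1, 19 U2, 5 U4 and 10 SmY genes and in 11 of 12 U5 genes, and in 0 of the 23 U6 genes, whose RNA binds LSm proteins instead. Many genes are copies: 14 of the 23 U6 genes give 1 identical RNA, and so do 7 of the 19 U2 genes.

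A shared stretch also stood before the genes. It consists of ACCC, 6 bases of any kind and TGTC, searched on the gene's strand only, with at most 1 mismatch in the 8 fixed letters, in the window from 80 to 35 bp before the 5′ end. The windows below were picked to show it in genes of each class with a peak and in a U6 gene that has none. T14B4.10, a U2 gene with no peak that also lacks the GTAGTA stretch, shows a window without it. Some genes with a peak lack the element too, among them F38E11.10, the U5 gene with the strongest peak, and smy-10. Their windows are not printed. Each window is the 80 bp that end just before the gene, 5′ to 3′ on the gene's strand. Capitals mark the 2 parts of the element and, in U6, the TATA words TATAAA or TATATA.
sup-6, U1, upstream, chrII:12944968-12945047, minus strand: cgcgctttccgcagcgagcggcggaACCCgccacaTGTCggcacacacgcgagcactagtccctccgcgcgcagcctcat
Y57G11C.35, U2, upstream, chrIV:14765035-14765114, minus strand: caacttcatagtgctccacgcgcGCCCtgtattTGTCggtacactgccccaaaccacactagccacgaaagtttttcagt
F10D2.13, U4, upstream, chrV:7142859-7142938, minus strand: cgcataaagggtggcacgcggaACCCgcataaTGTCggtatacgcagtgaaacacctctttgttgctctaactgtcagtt
Y69A2AR.36, U5, upstream, chrIV:2655186-2655265, minus strand: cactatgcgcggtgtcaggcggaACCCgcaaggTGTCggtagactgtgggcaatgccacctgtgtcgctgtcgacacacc
W05B2.8, U6, upstream, chrIII:10989599-10989678, plus strand: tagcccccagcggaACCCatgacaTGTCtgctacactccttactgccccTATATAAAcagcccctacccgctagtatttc
F54D8.7, U6, upstream, chrIII:5080899-5080978, minus strand: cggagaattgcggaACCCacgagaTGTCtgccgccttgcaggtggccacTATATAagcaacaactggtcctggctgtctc
K09B11.12, U6 with no peak, upstream, chrIV:13439017-13439096, plus strand: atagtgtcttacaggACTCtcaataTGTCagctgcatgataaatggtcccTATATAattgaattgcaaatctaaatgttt
smy-8, SmY, upstream, chrIV:13600767-13600846, plus strand: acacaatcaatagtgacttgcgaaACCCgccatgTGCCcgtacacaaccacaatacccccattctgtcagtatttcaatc
T14B4.10, U2 with no peak, upstream, chrII:6716355-6716434, minus strand: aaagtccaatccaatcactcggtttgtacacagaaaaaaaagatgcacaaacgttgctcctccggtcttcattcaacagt

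In the conservative pooled list of 2777 peaks, which kept peaks that both replicates ranked alike, 48 of the 99 snRNA genes (48.5%) had a summit within 200 bp. A summit is the base at which a peak's signal was highest. Over all annotated genes, 3038 of 46890 (6.48%) had one. Other small RNA genes were also above that share: 451 of 612 tRNA genes (73.7%), 16 of 30 spliced leader RNA genes (53.3%) and 99 of 346 snoRNA genes (28.6%). The replicates' own lists gave 42 snRNA genes in replicate 1 (5.60% of all genes) and 48 in replicate 2 (4.75% of all genes). Of these, 40 genes had a summit in both replicate lists and 50 in at least 1. A further pooled list, of 3082 peaks, reached 49 snRNA genes, against 6.92% of all genes. At the looser end, the ranked list of 67021 candidate peaks from which the pooled list was cut had a candidate at 77 snRNA genes, but also at 43.1% of all genes. In the stronger 50% of the pooled peaks, 41 snRNA genes had a summit, against 3.77% of all genes.

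The classes differed in how many of their genes had a summit. U5 had 10 of 12 genes (83.3%), U4 4 of 5 (80%), U1 10 of 13 (76.9%) and U2 14 of 19 (73.7%). Together these 4 classes, called the polymerase II classes here, had 38 of 49 genes (77.6%) in the pooled list, 34 in replicate 1 and 37 in replicate 2. The name does not place SmY, whose polymerase was not examined. It is a label only, and the part of the polymerase in the shares given here was not tested. U6 had 6 of 23 genes (26.1%) in the pooled list, 4 in replicate 1 and 6 in replicate 2. SmY had 3 of 10 genes (30%) in the pooled list, 3 in replicate 1 and 4 in replicate 2. Of the 17 genes in no class only mir-1831 had a summit, and that gene lies inside the U1 gene sup-39 and shares its peak. In both replicates each of U1, U2, U4 and U5 had a higher share than U6, SmY or the unclassed genes.

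**Figure D1:**
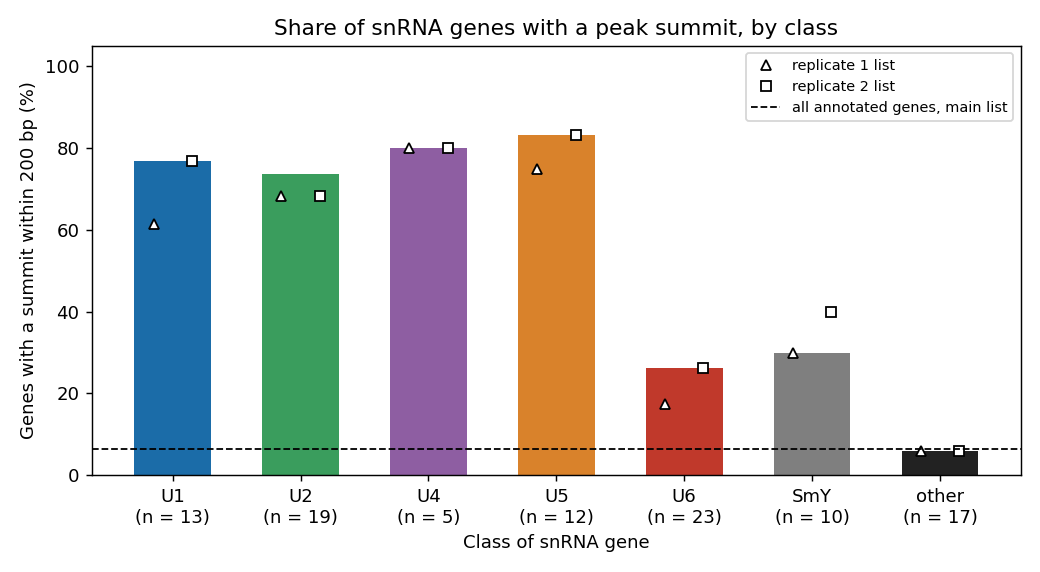
Bars give the percentage of genes in each class with a summit within 200 bp in the conservative pooled list, triangles and squares the same in the replicate 1 and replicate 2 lists, and the dashed line the 6.48% of all annotated genes. U1, U2, U4 and U5 lie between 61.5% and 83.3% in every list, and U6, SmY and the unclassed genes between 5.9% and 40%.

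In all, 53 peaks had a summit at these 48 genes, and 7 genes had 2 of them. The strongest peaks of the 48 genes were 46 distinct peaks, because T27E4.12 overlaps T27E4.22 and mir-1831 overlaps sup-39. The signal of a peak is the authors' own value, on a scale that the sources used here do not state, and it is compared only within a list. The median signal of these 46 peaks was 215.3, against 129.8 over the whole pooled list, and 40 of the 46 were above that list median. Among the 100 strongest peaks of the list 6 were at snRNA genes, and among the 500 strongest 18 were. Peak widths ran from 84 to 486 bp with a median of 336 bp, which is the median width of the whole list.

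U1 held the strongest peak of the set. At sup-6, a U1 gene known from mutants that suppress a splice-site defect, the signal was 705.9 in the pooled list, 457.7 in replicate 1 and 207.1 in replicate 2, and it ranked 30 of 2777. H27M09.6, which lies 208 bp from the 5′ end of syp-4, a synaptonemal complex gene, had 560.0 in the pooled list, 309.3 in replicate 1 and 255.6 in replicate 2. At sup-39, a second U1 suppressor gene, the values were 508.2, 282.9 and 218.6. These 3 genes and T08G5.11 (439.7 pooled, 246.5 and 195.1 in replicates 1 and 2) were the highest U1 genes in all 3 lists. The other 6 U1 genes with a summit ranged from 117.3 to 219.9 in the pooled list, below all 4 of those. T27E4.10 and T27E4.11, which lie beside heat shock genes of the hsp-16 family, had only ranked candidates, with signals of 61.9 and 56.9. C27H5.11 had no candidate in the pooled ranked list or that of replicate 1, and 1 of 28.4 in that of replicate 2.

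U2 peaks were strongest at Y57G11C.35, with 556.6 in the pooled list, 342.4 in replicate 1 and 206.4 in replicate 2. F08G2.10, 794 bp from the 5′ end of the histone gene his-42, had 508.3, 333.6 and 166.7. The next U2 gene, F56H6.14, stood lower in every list, with 251.0 pooled and 152.2 and 100.1 in replicates 1 and 2. F08G2.11 had 229.1, 158.6 and 55.0, and so was the fourth U2 gene in the pooled list but the third in replicate 1 and the lowest in replicate 2. C05G6.4 was lowest, with 99.7 pooled and 57.2 in replicate 1, and it had no summit in replicate 2. Of the 5 U2 genes without a summit, W07G1.9 and W07G1.8 had candidates of 53.8 and 53.4.

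U4 peaks were at C52E4.8, F10D2.13, T11F9.15 and K03B8.10. C52E4.8 had 637.6 in the pooled list, 381.9 in replicate 1 and 245.6 in replicate 2, and ranked 44. It lies 395 bp from the 5′ end of snr-4, which encodes an Sm protein, so its peak is also the promoter peak of that gene. F10D2.13 had 342.1, 186.0 and 153.1, T11F9.15 had 211.8, 111.2 and 89.1, and K03B8.10 had 143.8, 66.6 and 77.0, so the order of the 4 genes was the same in every list. T11F9.16 had only a candidate of 46.1.

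U5 had the highest median of the major classes, 340.0 over 10 peaks, against 219.9 for the 9 distinct U1 peaks and 204.1 for the 14 U2 peaks. F38E11.10 had 451.2 in the pooled list, 290.9 in replicate 1 and 147.5 in replicate 2. Y69A2AR.36, inside the span of gfrl-1, had 444.9, 248.6 and 198.5, so the 2 genes changed places between the replicates. ZK897.2 had 379.9, 183.8 and 192.2 and F42C5.12 had 363.3, 214.5 and 140.5. ZK897.2 and its neighbours ZK897.3 and ZK897.4 all lie inside unc-31, a gene of dense-core vesicle release, and each had a summit in all 3 lists. C53B4.9 and C53D6.16 had neither a summit nor a candidate, although 94.3% and 91.5% of their surrounding sequence is unique.

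In the pooled list U6 peaks were weaker at the median. W05B2.8 had 271.0 in the pooled list, 109.1 in replicate 1 and 154.5 in replicate 2. F54D8.7 had 222.7, 119.7 and 111.6, and C28A5.7 had 155.0, 94.4 and 61.5. K09C6.12 had 132.2 in the pooled list and 79.8 in replicate 1, with no summit in replicate 2. The last 2 genes, Y17G9A.85 (127.2 pooled) and T08B6.62 (102.6 pooled), had a summit in replicate 2 only among the replicates, at 71.1 and 54.7. Thus 3 of the 6 U6 genes had a summit in both replicate lists, against 33 of the 38 polymerase II genes. The median U6 signal in the pooled list was 143.6, below the medians of all 4 polymerase II classes, and near the 129.8 of the whole list. In replicate 1 the U6 median, 101.8, was also below all 4. In replicate 2 it was 89.4, below U1, U4 and U5 but above the 80.3 of U2. A run of 6 U6 genes inside mam-3 had no summit, and the highest candidate there, shared by K09B11.13 and K09B11.14, was 57.7. Y9C9A.111 had a summit in replicate 2, at 107.6, but none in replicate 1 or the pooled list.

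SmY peaks of the pooled list were all in 1 cluster on chromosome IV, from the start of smy-8 at 13600847, past smy-10, to the end of smy-9 at 13602278. The signals were 154.2 (smy-8), 134.3 (smy-9) and 125.5 (smy-10) in the pooled list, 77.3, 80.9 and 58.7 in replicate 1, and 79.1, 54.3 and 76.2 in replicate 2. The values of these 3 genes overlap so far that their order differed in each list. Outside the cluster, smy-1 had a summit in replicate 2 alone, at 44.1, and smy-11 had one in the further pooled list alone, at 69.4. Of the 17 unclassed genes, 6 lie on the opposite strand inside cytochrome P450 genes of the cyp-34A family, and none of those had a summit. Their highest candidates were B0213.22 with 33.8 and T10H4.16 with 31.6.

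**Figure D2:**
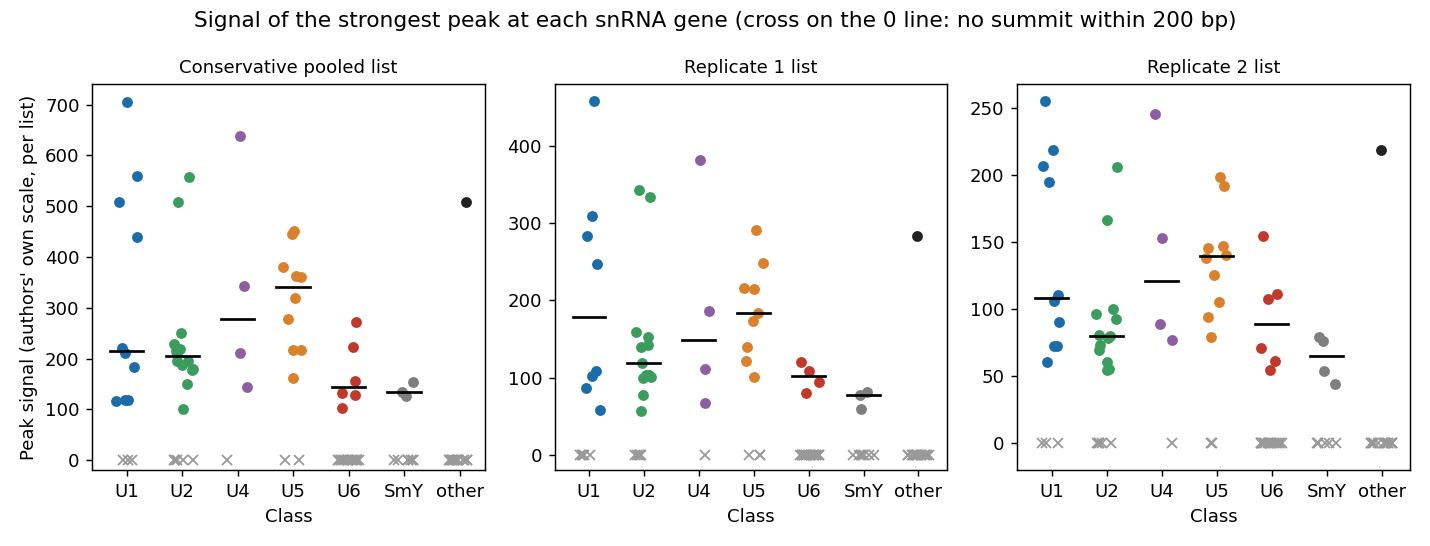
Each point is 1 gene and shows the authors' signal of its strongest peak (linear axis, 1 panel for each list, each with its own scale), crosses on the 0 line are genes with no summit within 200 bp, and black lines are medians over the genes with a summit. The single unclassed point at 508.2 in the pooled list is mir-1831, which shares the peak of sup-39.

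Over the 40 snRNA genes in both replicate lists, signals ran from 58.6 to 457.7 with a median of 130.4 in replicate 1 and from 54.3 to 255.6 with a median of 105.9 in replicate 2. The order of the genes was alike in both lists (Spearman's rho 0.80 across 40 genes, which share the 2 libraries and are not independent). The replicates placed the summit of a gene 26 bp apart at the median and at most 133 bp apart, with 37 of 40 within 50 bp. The names in only 1 replicate list were C05G6.4 and K09C6.12 in replicate 1, and C47F8.9, C53D6.12, T08B6.62, T27E4.12, T27E4.22, Y17G9A.85, Y9C9A.111 and smy-1 in replicate 2.

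All 48 genes had a summit within 50 bp of the gene, and the 200 bp limit decided nothing close to it. The summit of the strongest peak was farther only at R05D7.6, at -61 bp, and a weaker peak had its summit inside that gene. The members just inside it were F40G12.13 and Y69A2AR.36 at 41 bp and F38E11.10 at 39 bp, and just outside it were smy-1 at 295 bp, T27E4.10 at 574 bp and C53D6.16 at 1445 bp.

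Summits gathered around the start of the gene. Measured along the gene, the median summit position was -9.5 bp, upstream of the 5′ end (quartiles -22.5 and 15 bp), with 29 upstream, 18 inside and 1 beyond the 3′ end. When each summit was given only to its nearest gene, 25 snRNA genes kept a summit and the median position was 15 bp, inside the gene. By that rule a summit outside an snRNA gene goes to any gene that contains it or lies nearer. The genes that took these summits were not listed. Among other small RNA genes, snoRNA genes had a median of -29.0 bp with 81.8% of summits upstream, spliced leader RNA genes -2.0 bp with 50% upstream, and tRNA genes 22.0 bp with 21.7% upstream and 72.1% inside. The snRNA genes, with 60.4% upstream and 37.5% inside, stood between snoRNA and tRNA genes. Summits differ by a median of 26 bp between replicates, so differences of that size between single genes are not resolved.

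Summits spread most widely in U2. U5 summits had a median of -18.0 bp and U1 summits -8.5 bp, with U1 between -41 and 35 bp. U4 had 4.5 bp and U6 -7.5 bp, with U6 between -31 and 15 bp. U2 had a median of 36.5 bp and ran from -61 bp at R05D7.6 to 195 bp at F56H6.15, past its 3′ end. Class medians moved between replicates, for U1 -9.0 bp in replicate 1 and 25 bp in replicate 2, for U2 28.0 and -19.0 bp, and for U6 -24.0 and -3.5 bp. The sign of the U1 and U2 medians therefore differed between the replicates. U2 is also the class with the least unique sequence: of the 36-base words that cover each summit, a median of 47.2% occur once in the genome for U2, against 77.8% over all 48, and 5 of the 14 U2 summits lie where no such word is unique. The part of this in the spread of U2 summits was not tested. Outside U2, no such word was unique at the summits of the U1 gene T08G5.11 and the U4 gene T11F9.15.

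**Figure D3:**
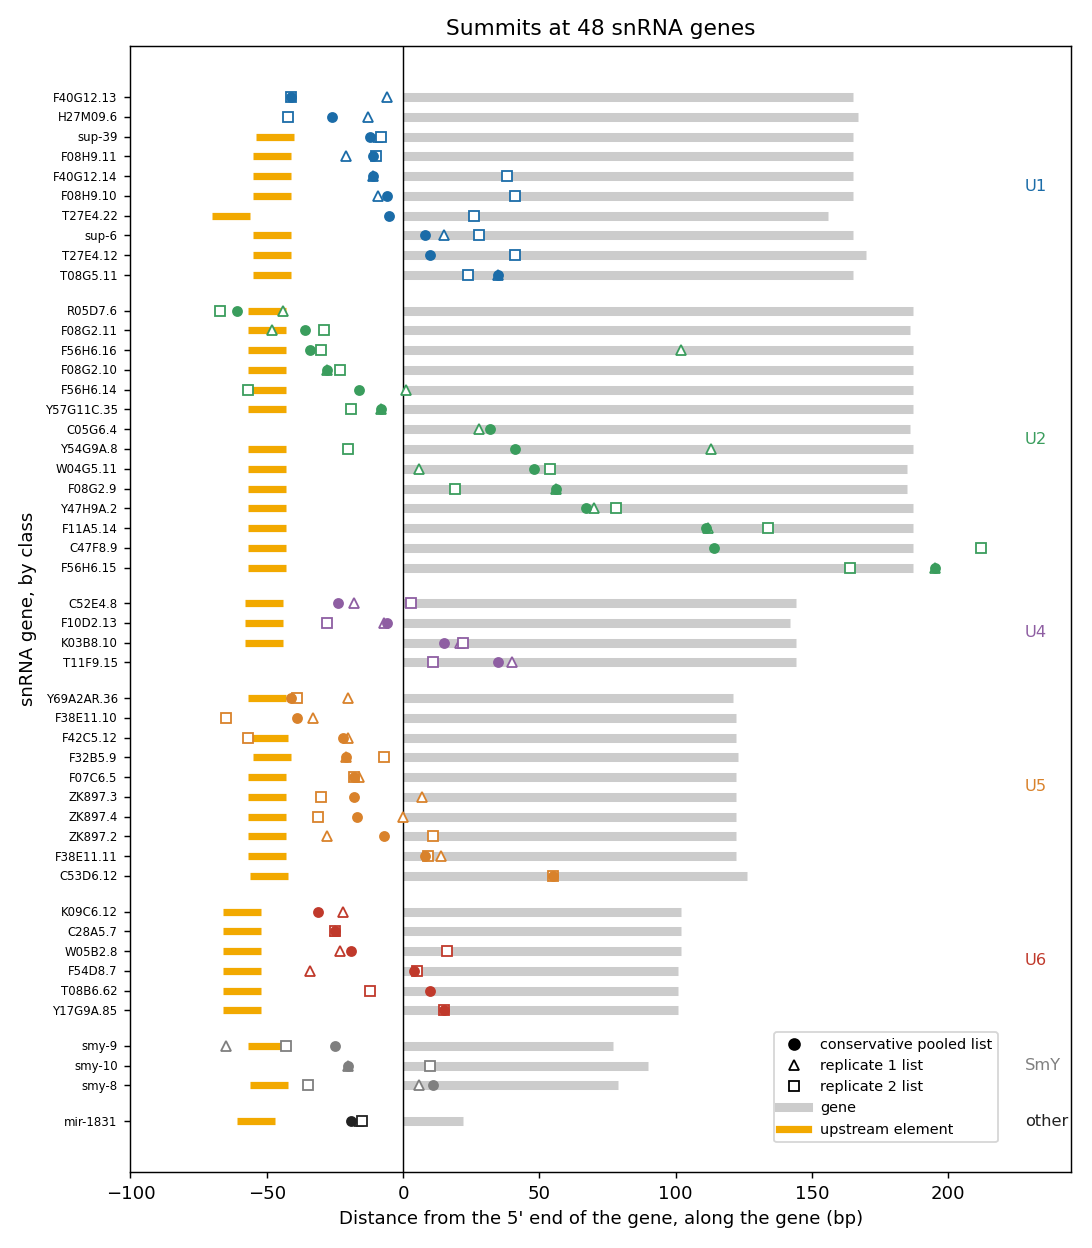
Each row is 1 of the 48 snRNA genes with a summit, by class, with distance in bp along the gene from its 5′ end, the gene in grey, the upstream element in yellow, and the summit in the pooled list (dot), replicate 1 (triangle) and replicate 2 (square). Most dots lie between the element and the first bases of the gene, while U2 dots run from -61 to 195 bp.

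The upstream element was found before 71 of the 99 snRNA genes (71.72%), against 446 of 46878 genes in all (0.951%) and 0.826% of protein-coding genes. Without any mismatch it stood before 31 snRNA genes, against 95 of all genes (0.203%). It was also found before 13 of 30 spliced leader RNA genes (43.33%), 40 of 346 snoRNA genes (11.56%) and 7 of 612 tRNA genes (1.14%). Its place varied little within most classes. It began at -57 bp in all 17 U2 genes that had it, at -58 bp in all 4 U4 genes, between -59 and -55 bp in 11 U5 genes, and at -66 or -65 bp in all 17 U6 genes that had it. In 9 SmY genes it began between -58 and -52 bp, and in 11 U1 genes between -70 and -54 bp. The -70 bp was at T27E4.22, which overlaps T27E4.12. The words GCGGAACC and TGTCGGTA, which overlap its ends, were found within 100 bp before 26 and 18 snRNA genes, against 0.147% and 0.105% of all genes. TATA words within 50 bp before the gene were found at 17 U6 genes, starting between -31 and -29 bp, and at 0 of the 49 U1, U2, U4 and U5 genes, against 8.7% of all genes.

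Summits lay on the gene side of the element. In the 42 genes with both, the summit was a median of 42.0 bp downstream of the element's centre (quartiles 32.0 and 68.25 bp), and 41 of the 42 were downstream of it. Of the snRNA genes with an exact element 23 of 31 had a summit, of those with 1 mismatch 19 of 40, and of those with none 6 of 28. Within the polymerase II classes the counts were 18 of 24, 15 of 19 and 5 of 6, so there the element did not separate genes with a summit from those without. In U6 they were 4 of 5, 2 of 12 and 0 of 6. The U6 genes also split by the element's place, since 6 of the 9 with it at -66 bp had a summit and 0 of the 8 with it at -65 bp did. The 8 genes at -65 bp come from 2 clusters, K09B11 in mam-3 and F54C8, so these are not 8 separate cases. These U6 genes also differ in the share of words in their upstream sequence that are unique in the genome. That share was 88.5% to 100% in the 9 genes at -66 bp. In the 8 genes at -65 bp it was lower, from 6.7% to 87.9%. The part of this difference in the split was not tested. The element was defined after these sequences had been seen, and these counts are a description.

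Outside the snRNA genes, 49 of the 64 genes with an exact element had a summit (76.6%). These include 24 of 26 snoRNA genes and 11 of 11 spliced leader RNA genes. With 1 mismatch, 12 of 14 snoRNA genes and 33 of 311 genes in all (10.6%) had one. With no element, a summit was present at 20.6% of snoRNA genes and 6.3% of all genes that are not members. For protein-coding genes the shares were 3 of 9 with an exact element and 8 of 156 with 1 mismatch, against 8.8% with no element. A gene that overlaps a small RNA gene is counted for itself, so these genes are not all separate loci.

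Genes with the same RNA did not all have a peak. Of the 14 U6 genes with 1 identical RNA, C28A5.7, K09C6.12 and W05B2.8 had a summit, and the other 11 had none in the pooled list. All 3 genes of a second identical U6 RNA had one (F54D8.7, T08B6.62 and Y17G9A.85, 102.6 to 222.7). Of the 7 U2 genes with 1 identical RNA, 5 had a summit, with signals from 176.9 to 508.3. The 2 U4 genes with 1 RNA, C52E4.8 and T11F9.15, had 637.6 and 211.8.

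How reads that match several copies were handled is not given in the sources used here, and its part in these counts was not tested. Over each gene and 200 bp to each side, a median of 78.4% of 36-base words were unique in the 48 genes with a summit and 85.9% in the 51 without. These medians mix classes, since the 51 include 16 unclassed and 7 SmY genes, whose class medians were 99.8% and 99.9%. The U1 genes without a summit had 36.5%, 38.4% and 86.0%, against a median of 75.7% over all U1 genes. The U2 genes without one had 0%, 0%, 31.9%, 68.5% and 97.6%, against a median of 58.7% over all U2 genes. Of the 10 genes under 50% unique, 3 had a summit, and at F15H9.5 and F15H9.6, a U2 pair, no word was unique. Among the 15 U6 genes at least 50% unique that have the element, 6 had a summit, against 30 of 35 such U1, U2, U4 and U5 genes.

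**Figure D4:**
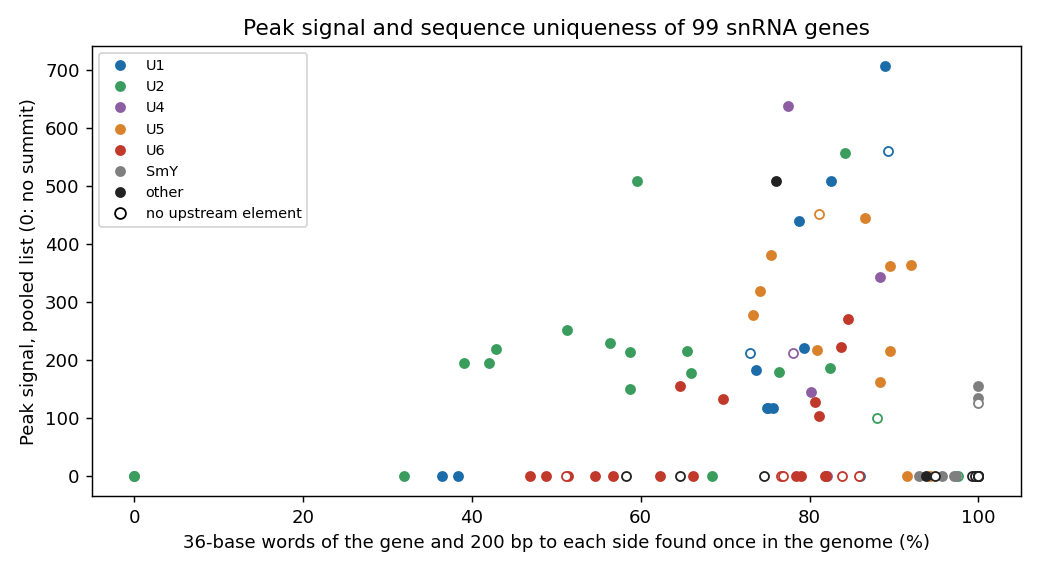
Each of the 99 snRNA genes is placed by the percentage of unique 36-base words over the gene and 200 bp to each side (horizontal) and the pooled-list signal of its strongest peak (vertical, 0 for no summit), with open points for genes lacking the upstream element. Genes without a summit occur over the whole range of uniqueness, from 0 to 100%.

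Many snRNA genes lie in or beside protein-coding genes. Of the 60 inside the span of a coding gene 24 had a summit, and of the 41 within 1000 bp of a coding 5′ end 24 did. The peaks of 18 members (16 distinct peaks) fell in the window from 1000 bp upstream to 200 bp downstream of a coding 5′ end, among them those at C52E4.8 (snr-4), F08G2.10 (his-42) and sup-39 (eif-2Bgamma, a translation initiation factor subunit). At such peaks, binding at the snRNA gene and at the coding promoter cannot be told apart. By chromosome, 9 of 12 members on chromosome I had a summit, 7 of 13 on II, 3 of 7 on III, 16 of 36 on IV, 13 of 28 on V and 0 of 3 on X. The share over all genes of each chromosome was not computed, so these counts do not compare chromosomes. They also follow the classes, since the 7 members on III are all U6 genes and the 3 on X are all unclassed.

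Genes for the proteins that make and use snRNAs were also examined, with a summit between 1000 bp upstream and 200 bp downstream of the 5′ end. Of 63 listed genes 12 (19.0%) had one, against 1428 of 19973 protein-coding genes (7.15%). The count was 12 with a narrower window of 500 bp upstream to 100 bp downstream (5.90% of coding genes), 17 in the further pooled list (7.72%), 14 in replicate 1 (6.52%), 8 in replicate 2 (4.67%) and 7 in the stronger 50% of the pooled peaks (3.98%). Genes for snRNA synthesis, which include the SNAPc and Integrator subunits, had 6 of 20, U2 proteins 2 of 9, U4/U6 and U5 proteins 2 of 10, Sm proteins 1 of 7, cap and assembly factors 1 of 6, LSm proteins 0 of 8 and U1 proteins 0 of 3. The Sm protein gene was snr-4, whose peak is that of C52E4.8, described above. Next came snpc-3.4, a SNAPc subunit gene, with 538.3 in the pooled list, 355.8 in replicate 1 and 185.3 in replicate 2, its summit 36 bp upstream of the 5′ end (-36 bp). The Integrator subunit gene ints-4 had 369.8, 235.2 and 127.5. The importin gene imb-1 had 287.9 in the pooled list and 184.4 in replicate 1, with no summit in replicate 2. The other 8 genes (sap-140, ints-5, snpc-1.4, snpc-3.2, prp-8, snpc-1.2, snu-13 and uaf-2) lay between 65.7 and 156.1. Of these, snpc-3.2 and snpc-1.2 had a summit in replicate 1 but not in replicate 2, and snu-13 and uaf-2 in neither replicate list. The other SNAPc genes with a summit were snpc-1.2, snpc-1.4 and snpc-3.2, whereas snpc-1.1, snpc-1.3, snpc-3.1 and snpc-4 had none.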

How the data were processed

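Peaks came from 2 biological replicates of 1 group. The deposited peak lists give a signal per peak, which is the authors' own value against a control, per the descriptions deposited with the samples. The control was not used here. The summit offset, an other value in bp, and the −log10 of the irreproducible discovery rate (IDR) were also deposited by the authors. Each thresholded list was used as deposited, and all candidates kept in the main list had a −log10 IDR of at least 2.00. The build is ce11 (WBcel235), per the labels. For the aligner and the peak caller, the program is not given in the sources used here. Library depth is unknown.

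Genes came from Ensembl release 115. RefSeq names were matched by WormBase ID for 99 of 99 members, since Ensembl gives identical copies 1 name. The main list was the conservative pooled list, a gene was counted when a summit lay within 200 bp, and its strongest peak gave its value. Positions are along the gene from its 5′ end. Neither annotation gave U classes, so families linked at 80% identity to at least 1 other member (edlib 1.3.9.post1) were named by short signatures. The proteins listed were 70 symbols, of which 63 matched. A 36-base word was unique if it occurred once in the genome on either strand. Scripts used Python 3.11.15, pandas 2.3.3, numpy 2.4.6, scipy 1.17.1 and matplotlib 3.10.9, and the assignment of summits to genes was tested on simulated data.

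In each class the text names the 4 genes with the highest signal and up to 2 without a summit that had the best candidate. In the protein list it names the 4 highest. Genes in identical-RNA groups, in clusters, at a class extreme or in 1 replicate only were named after their values were seen. The members and lists were chosen with earlier results of these data known. The U4 signature, the upstream element, the uniqueness limit of 50% and the alternatives without mir-1831, with each peak counted once and without small RNA summits were added after seeing the data. No p-value was computed, since there is 1 group. The RNA sequences of U5 and U6 are not reported here.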

Additional observations from a re-analysis of the deposited data

How the results depend on the processing

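Counts of snRNA genes with a summit stayed within 1.5 times of the value reported when the limit was 100 or 500 bp, in the further pooled list, in the stronger 50% of the peaks (41 genes, against 3.77% of all genes), and when only genes at least 50% unique were counted or mir-1831 was left out. Without 1 replicate the counts ran from 42 to 48 for all members, 4 to 6 for U6 and 34 to 37 for U1, U2, U4 and U5. Giving each summit to its nearest gene only left 25 of 48 genes in all, 3 U6 genes and 19 of the U1, U2, U4 and U5 genes, with a median position of 15 bp. By construction, that choice hands a summit outside an snRNA gene to any gene that contains it or lies nearer. The median position was otherwise -7.0 bp within 500 bp, -8.0 bp in the further pooled list and in genes at least 50% unique, -9.0 bp in each replicate list (lowest and highest alike) and -12 bp in the stronger 50%. The protein list had 7 genes in the stronger 50% (3.98% of coding genes), 8 to 14 in the replicate lists, 17 in the further pooled list and 11 without summits at small RNA genes. No paired analysis was possible because there was 1 group. Depth is unknown, so a gene with no summit may be one where a peak was not detectable.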
